A study of Mus musculus with 9 samples.

Results

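Hamp, Hamp2, Tfrc, Tfr2, Trf, Fth1, Ftl1, Hfe, Bmp6 and Slc40a1 are the mouse genes for hepcidin and for the main proteins that sense, carry, store and export iron in the liver. These 10 genes were taken by symbol from a table of 27179 genes measured in mouse liver, and each symbol had 1 row. All 10 passed the filter on low values. The rule uses the symbols and no measured value.

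The libraries are poly(A) RNA-seq of the m-lobe of the liver, flash-frozen at harvest. All donors were wild-type C57BL/6J mice that received an AAV8 vector through the retro-orbital route when 17 months old, and the lobe was taken 3 weeks later. The control group (sgRosa26, 4 libraries, named A to D here) received AAV8-TBG-saCas9-U6-sgRosa26, whose guide is directed at the Rosa26 locus. The other group (sgCcnd1, 5 libraries, named E to I) received AAV8-TBG-saCas9-U6-sgCcnd1, directed at Ccnd1, the gene for the cell cycle regulator cyclin D1. Thus every mouse carried the vector and the nuclease saCas9, and there were no uninjected mice. The TBG promoter is active in hepatocytes, so the edit was directed at those cells, while the RNA came from the whole lobe. In such bulk RNA, fewer cells of a type and less RNA per cell cannot be told apart. The labels call each sample a mouse and give no batch or sex.

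Hepcidin is a peptide hormone that hepatocytes secrete when iron is plentiful. It binds ferroportin, the iron exporter encoded by Slc40a1, and causes its removal from the cell surface, which keeps iron inside cells. Hepatocytes raise hepcidin transcription when BMP ligands such as BMP6, made by the sinusoidal endothelium, act through SMAD proteins, and when interleukin 6 acts through STAT3. HFE and transferrin receptor 2 link this pathway to the amount of iron-loaded transferrin in blood. Inside the cell, the iron regulatory proteins bind hairpins called iron-responsive elements in mRNA and so set how much ferritin is translated and how long transferrin receptor mRNA lasts.

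A pair of neighbouring promoters shows why Hamp and Hamp2 are read together here. The genes lie on the minus strand of chromosome 7 in GRCm38, Hamp at chr7:30942368-30944032 and Hamp2 at chr7:30922372-30924681, with 17686 bases between them. The lines below give 100 bases of each RefSeq promoter (GRCm38.p6, minus strand), aligned to each other. That of Hamp covers chr7:30944060-30944159 and that of Hamp2 chr7:30924209-30924308, which are positions -130 to -31 and -127 to -28 from the RefSeq starts. For Hamp2 that start, base 30924181, is also the start of 2 of its 3 GENCODE vM21 transcripts. The remaining one, Hamp2-202, begins at base 30924681, so the printed Hamp2 stretch lies inside the extent of the gene given above. Capitals mark the letters GGCGCC, the core of the BMP response element, and matches to TTCNNNGAA, the STAT site.
Hamp: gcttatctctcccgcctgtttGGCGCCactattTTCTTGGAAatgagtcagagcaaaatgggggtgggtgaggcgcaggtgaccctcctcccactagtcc
Hamp2: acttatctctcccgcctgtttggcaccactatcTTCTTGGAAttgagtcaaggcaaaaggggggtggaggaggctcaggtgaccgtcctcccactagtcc

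The stretches share the STAT letters and differ within the BMP response element letters. The difference is G145A, counted from 1 at the 5′ end of the 300-base Hamp window, with the Hamp base first. It is 1 of 11 substitutions in these 100 bases. Over the 250 bases before the start, the promoters were identical in 227 of 253 aligned positions (89.7%). Searched on both strands, GGCGCC occurred in 11.9% of 32851 RefSeq promoter windows of 300 bases and TTCNNNGAA in 8.30%. Of the 10 genes, 8 had such a window, and Tfrc was the only other one of them with GGCGCC, at position -89. TGACNNNGC, the core of the antioxidant response element, was found in the windows of Hfe and Bmp6 and in 12.4% of all windows. A match is a description of letters and not of binding.

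The second set of sequences shows which of the 10 mRNAs hold letters that match an iron-responsive element. A hairpin with the loop CAGTGN, a C placed 5 bases before it and 5 paired stem bases on each side was searched over whole GENCODE vM21 transcripts (GRCm38), coding bases included. It was found in Fth1, Ftl1, Slc40a1 and Tfrc, and in 294 of 21877 protein-coding genes searched (1.34%). The stem rule was added after the loop alone had been chosen as the motif. An element with another loop, or with an unpaired base in this stem, would be missed. The loop letters alone, searched in the 50 transcribed bases of the RefSeq windows, matched in Tfr2 and in 7.08% of all windows, and this Tfr2 match did not meet the stem rule. Capitals mark the loop. The Fth1, Ftl1 and Slc40a1 hairpins lie in the 5′ UTR, at chr19:9982733-9982759 (plus strand), chr7:45459780-45459806 (minus strand) and chr1:45925466-45925492 (minus strand). The 4 Tfrc hairpins lie in the 3′ UTR on the plus strand, at chr16:32631220-32631246, chr16:32631599-32631625, chr16:32631664-32631690 and chr16:32631711-32631737, printed as Tfrc-a to Tfrc-d in that order.
Fth1: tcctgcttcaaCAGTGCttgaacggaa
Ftl1: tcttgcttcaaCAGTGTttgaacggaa
Slc40a1: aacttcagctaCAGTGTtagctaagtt
Tfrc-a: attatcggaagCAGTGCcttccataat
Tfrc-b: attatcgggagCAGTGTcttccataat
Tfrc-c: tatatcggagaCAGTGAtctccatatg
Tfrc-d: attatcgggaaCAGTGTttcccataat

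Depth ranged from 10840595 to 20176201 assigned reads per library. Ccnd1, the targeted gene, was measured at 684, 800, 625 and 867 normalized counts in libraries A to D and at 428, 347, 370, 339 and 325 in E to I, so the groups did not overlap. Its log2 fold change was -1.03 (SE 0.11, limma adjusted p = 0.0116), which matches the labels. Library H of the sgCcnd1 group stood apart in having almost no reads of Y-linked genes (Ddx3y at 2.00 against 810 to 1154 normalized counts in the other libraries). Xist was at 2.00 in library H and at 0 to 3.92 in the others. The labels give no sex. Without library H, the limma log2 fold changes of the 10 genes were -0.45 (Hamp), 0.31 (Hamp2), 0.0320 (Bmp6), 0.13 (Hfe), 0.23 (Tfr2), -0.0720 (Tfrc), 0.0796 (Trf), 0.17 (Fth1), 0.54 (Ftl1) and 0.20 (Slc40a1), none past the threshold. The 5 hepatocyte markers (Alb, Apoa1, Ttr, Serpina1a and Cps1) were all detected and summed to between 1512170 and 1989090 normalized counts per library.

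None of the 10 iron genes passed the test between sgCcnd1 and sgRosa26 livers (limma, adjusted p below 0.05), where 0.0077% of the 12993 genes tested did, namely Ccnd1 alone. At an unadjusted p below 0.05 the count was 1 of 10, Ftl1, against 11% of all genes. For each of the 10, at least 1 sgCcnd1 library lay within the control range or on the far side of it, so no gene had groups that did not overlap, against 3.89% of all genes. The log2 fold changes were positive for 7 and negative for 3, with a median of 0.13, and the median of all genes tested was 0.01. DESeq2 and edgeR on recovered reads also called 0 of 10, where they called 0.976% and 0.0077% of genes.

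**Figure D1:**
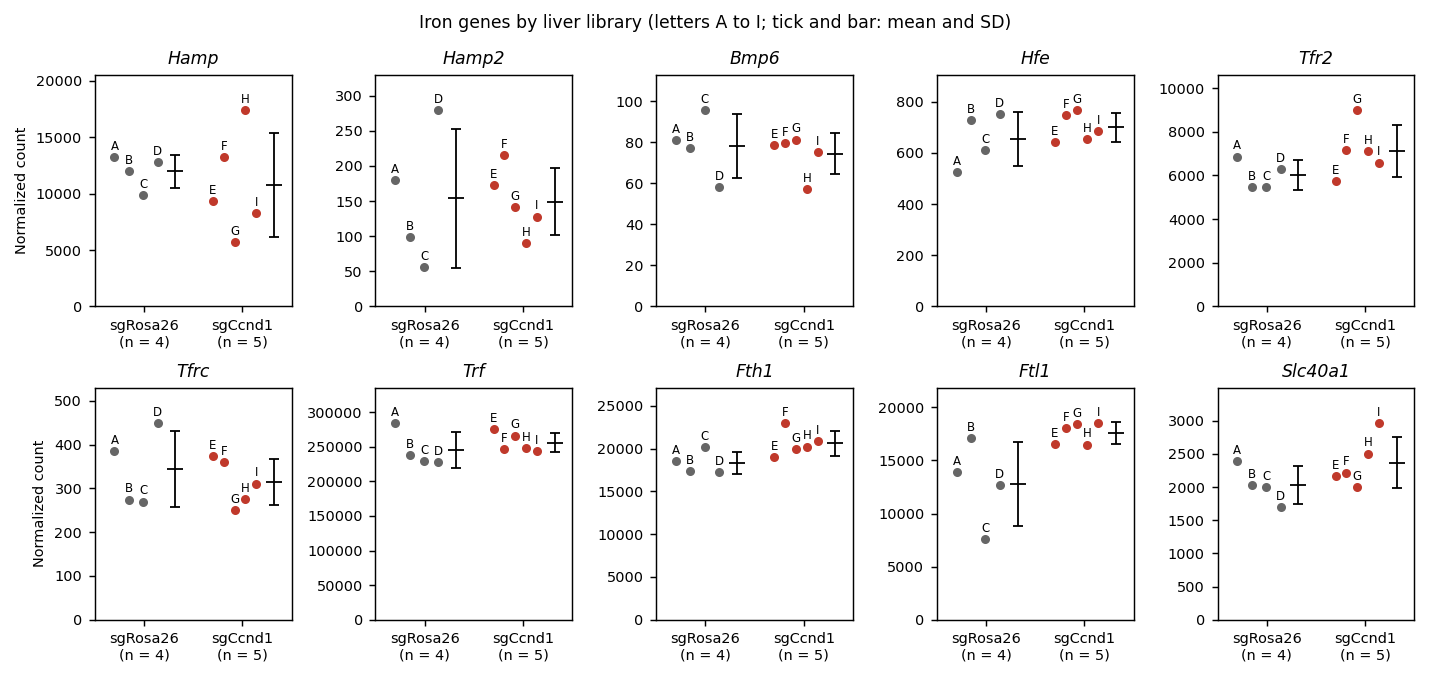
Normalized counts of the 10 iron genes in each liver library (vertical axes, linear from 0), with 1 point per library lettered A to I, grey for sgRosa26 and red for sgCcnd1. The tick and bar beside each group are its mean and SD; the 5 sgCcnd1 points of Hamp run from 5703 to 17425 while the 4 controls lie between 9859.7 and 13208.

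Hamp, the gene for hepcidin, was measured at 13208, 12024, 9859.7 and 12769 normalized counts in the control livers A to D. In the sgCcnd1 livers E to I it was at 9352, 13222, 5703, 17425 and 8243. Thus 2 of the sgCcnd1 livers were above every control and 3 below every control. The mean was 11965 ± 1486 (SD, n = 4) in sgRosa26 and 10789 ± 4593 (SD, n = 5) in sgCcnd1. The log2 fold change was -0.25 (SE 0.26, 95% interval -0.80 to 0.31, limma adjusted p = 0.747). Its value was -0.45 without library H, which had the highest Hamp, and -0.04 without library G, which had the lowest. With edgeR and with DESeq2 it was -0.16. The coefficient of variation was 12.4% in the controls and 42.6% in the sgCcnd1 livers, and no test of that difference in spread was made.

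Hamp2, the second mouse hepcidin gene, was measured at far lower levels, 179.5, 99.05, 56.3 and 279.7 normalized counts in A to D and 172, 215, 141, 89.96 and 128 in E to I. All 5 sgCcnd1 livers lay inside the control range. The means were 154 ± 98.3 (SD, n = 4) and 149 ± 47.1 (SD, n = 5), while the log2 fold change was 0.14 (95% interval -0.70 to 0.98, limma adjusted p = 0.923), so the mean and the log scale differ in sign. It was -0.25 without library C and 0.51 without library D, and -0.0366 with edgeR and -0.0460 with DESeq2. Hamp2 made up between 0.514% (library H) and 2.41% (library G) of the normalized counts of both genes. The reference transcripts of Hamp and Hamp2 are identical in 88.8% of aligned positions with a shared run of 87 bases, so the split of reads between them is uncertain.

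Bmp6, the ligand, was at 81.2, 77.1, 95.7 and 58.3 normalized counts in A to D and 78.5, 79.7, 81.3, 57.0 and 75.2 in E to I. The range of the controls held 4 of the 5 sgCcnd1 livers, and library H was just below it. On the log2 scale the difference was -0.06 (95% interval -0.42 to 0.30, limma adjusted p = 0.924). Its sign turned without library C or H and under quantile normalization.

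Hfe, which encodes the MHC class I-like protein mutated in hereditary hemochromatosis, was at 526, 728, 611 and 751 normalized counts in A to D and 643, 749, 769, 655 and 685 in E to I. The fold change on the log2 scale was 0.11 (95% interval -0.13 to 0.35, limma adjusted p = 0.745). Only library G exceeded the highest control. Without library A, the lowest of all, the value was 0.0098, and without library D it was 0.18.

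Tfr2, the hepatocyte sensor of iron-loaded transferrin, was at 6862, 5484, 5456 and 6295 normalized counts in A to D and 5752, 7165, 9006, 7131 and 6590 in E to I. Libraries F, G and H were above every control, and E and I lay among the controls. The means were 6024 ± 681 (SD, n = 4) and 7129 ± 1195 (SD, n = 5), with a log2 fold change of 0.23 (SE 0.12, 95% interval -0.04 to 0.51, limma adjusted p = 0.514). Without library G, the highest, it was 0.15, and under quantile normalization it was 0.14. Library G therefore held the lowest Hamp and the highest Tfr2 of the 9 livers.

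Tfrc, the receptor through which most cells take up transferrin iron, was at 385, 274, 269 and 449 normalized counts in A to D and 374, 359, 250.6, 275 and 311 in E to I. Only library G was below the lowest control, and none was above the highest. In log2 units the fold change was -0.12 (95% interval -0.48 to 0.25, limma adjusted p = 0.834), and it was 0.0231 without library D and -0.22 without library C.

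Trf, which encodes transferrin, the iron carrier of plasma, had the highest level of the 10. It was at 284171, 238254, 229874 and 228267 normalized counts in A to D and 276133, 247180, 266142, 247904 and 243889 in E to I. All sgCcnd1 livers lay inside the control range. The log2 fold change was 0.07 (95% interval -0.29 to 0.42, limma adjusted p = 0.912), and -0.14 under quantile normalization. It was 0.14 without library A and 0.0358 without library D.

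Ferritin, the shell in which cells store iron, is built from a heavy chain encoded by Fth1 and a light chain encoded by Ftl1. Fth1 was at 18509.7, 17366, 20141 and 17268 normalized counts in A to D and 19009, 22967, 19963, 20239.5 and 20829 in E to I. Libraries F, H and I were above every control, and the log2 fold change was 0.17 (95% interval -0.04 to 0.38, limma adjusted p = 0.537). Under quantile normalization it was 0.11.

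Ftl1 had the largest fold change of the 10 in size. It was at 13873, 17093, 7596 and 12695 normalized counts in A to D and 16504, 18030, 18425, 16488 and 18508 in E to I. The sgCcnd1 values sit close together, 3 of them above every control, and the controls spread from 7596 to 17093. The means were 12814 ± 3944 (SD, n = 4) and 17591 ± 1016 (SD, n = 5). On the log2 scale the difference was 0.51 (SE 0.18, 95% interval 0.11 to 0.92), which passed before adjustment over all genes and not after it (limma adjusted p = 0.344). Without library C, the lowest control, it was 0.28, and without library B, the highest control, it was 0.67.

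In library C the ferritin chains also stood in another proportion. The ratio of Fth1 to Ftl1 normalized counts was 2.65 in C and between 1.02 and 1.36 in the other libraries. The related row Ftl1-ps2 held 1.42 to 9.64 normalized counts in the 9 libraries. Reads of Ftl1 and of copies like it may have been split in the authors' counting, so the Ftl1 level is uncertain to that degree.

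Slc40a1, which encodes ferroportin, the target of hepcidin, was at 2395, 2026, 1997 and 1694 normalized counts in A to D and 2162, 2217, 2002, 2505 and 2963 in E to I. Libraries H and I were above every control. The fold change on the log2 scale was 0.22 (SE 0.13, 95% interval -0.05 to 0.49, limma adjusted p = 0.536), and it was 0.14 without library D or library I and 0.147 under quantile normalization.

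**Figure D2:**
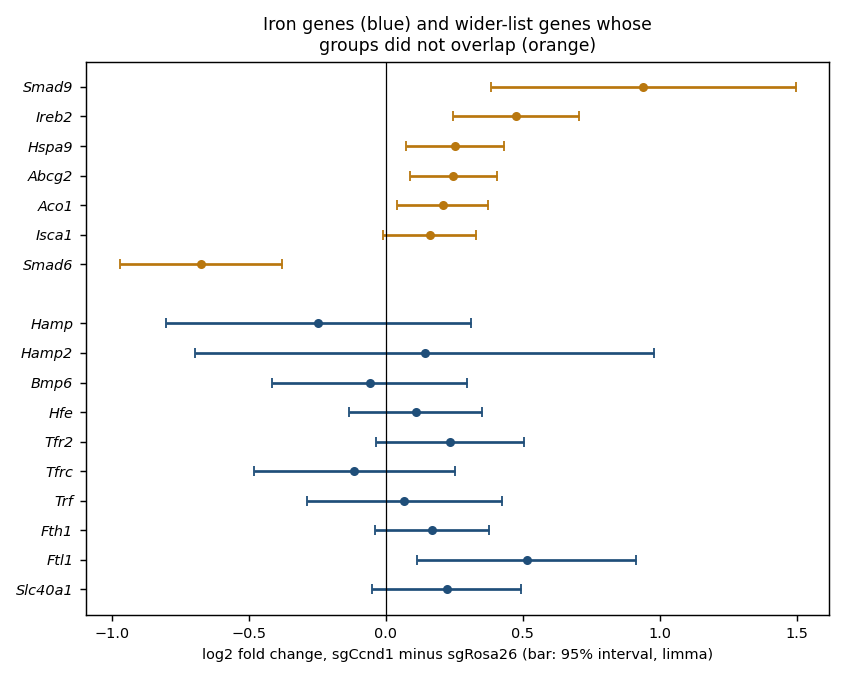
Fold changes on the log2(normalized count + 1) scale, sgCcnd1 minus sgRosa26 (horizontal axis), for the 10 iron genes in blue and the 7 genes of the wider iron list whose groups did not overlap in orange. Points are limma estimates and bars their 95% intervals; among the 10 iron genes the bar of Ftl1 (0.11 to 0.92) is the only one that does not cross 0.

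To order levels between genes, normalized counts were divided by the length of the GENCODE vM21 transcript in kilobases. The mean level over the 9 livers was 97749 normalized counts per kilobase for Trf, 27590 for Hamp, 21085 for Fth1, 15979 for Ftl1, 2161 for Tfr2, 658 for Slc40a1, 346 for Hamp2, 190.3 for Hfe, 66.9 for Tfrc and 21.2 for Bmp6. Most neighbours in this order kept their places in all 9 livers. Hamp was above Fth1 in 7 of 9, Slc40a1 above Hamp2 in 8 and Hamp2 above Hfe in 8. Hamp ranged from 13909 to 42499 per kilobase and so covered the whole range of Fth1.

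Hamp transcription is driven by BMP and SMAD signalling and by inflammation, so its level was set against 5 genes chosen for that: Hamp2, Bmp6, the BMP target genes Id1 and Smad7, and the acute phase gene Saa1. Each relation is over the 9 livers on the log2 scale, with exact two-sided permutation p-values over all pairings, adjusted over the 5 relations. None passed after adjustment. Both groups are pooled here, so a shift between them can enter r. With values centred on the group means, r of Hamp was 0.75 with Id1, 0.74 with Smad7 and -0.58 with Bmp6. Centred in this way it was -0.39 with Saa1 and 0.09 with Hamp2. In library G, Id1 (55.8 normalized counts) and Smad7 (187) were at their lowest, as Hamp was. Library H had the highest Smad7 (371) and the highest Hamp.

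With Id1, Pearson's r was 0.75 (exact permutation p = 0.0159, adjusted 0.0796) and Spearman's rho 0.65 (exact permutation p = 0.0666, adjusted 0.270). Without libraries B and G, the farthest from the median of Id1, r was 0.65 (exact permutation p = 0.115). Without library A or library E alone the adjusted exact permutation p was 0.00533 or 0.0438, so the call rests on which livers are included.

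With Smad7, r was 0.70 (exact permutation p = 0.0328, adjusted 0.0821) and rho 0.58 (exact permutation p = 0.108, adjusted 0.270). Without libraries G and H, the farthest from the median of Smad7, r was 0.12 (exact permutation p = 0.784). These hold its lowest and highest values, and dropping both ends of a range can by itself lower r. With 1 library left out at a time, r was 0.49 to 0.84. As for Id1, leaving out library A or library E alone brought the adjusted exact permutation p under the threshold, to 0.0391 (r = 0.81) or 0.0438 (r = 0.84). Without library H alone, r was 0.71 with Id1 and 0.57 with Smad7, with adjusted exact permutation p of 0.223 and 0.348.

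With Bmp6 itself r was -0.52 (exact permutation p = 0.156, adjusted 0.260; rho -0.37, exact permutation p = 0.336, adjusted 0.560), and -0.01 without libraries D and H. With Saa1, r was -0.35 (exact permutation p = 0.359, adjusted 0.449; rho -0.27, exact permutation p = 0.493, adjusted 0.617), and -0.16 without B and G. With Hamp2, r was 0.06 (exact permutation p = 0.877, adjusted 0.877; rho 0.17, exact permutation p = 0.678, adjusted 0.678), and -0.17 without C and D. The hepcidin genes thus showed no detectable relation to each other in these 9 livers, although their promoters are alike in most of the bases printed above.

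The same relations were then computed for Hamp2, after those of Hamp had been seen. Pearson's r was 0.09 with Id1 (exact permutation p = 0.820) and -0.15 with Smad7 (exact permutation p = 0.705), each adjusted to 0.820 over 4 relations. Spearman's rho was -0.05 (exact permutation p = 0.912) and -0.12 (exact permutation p = 0.776), each adjusted to 0.912. Whether the relations of Hamp and Hamp2 to these genes differ was not tested.

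**Figure D3:**
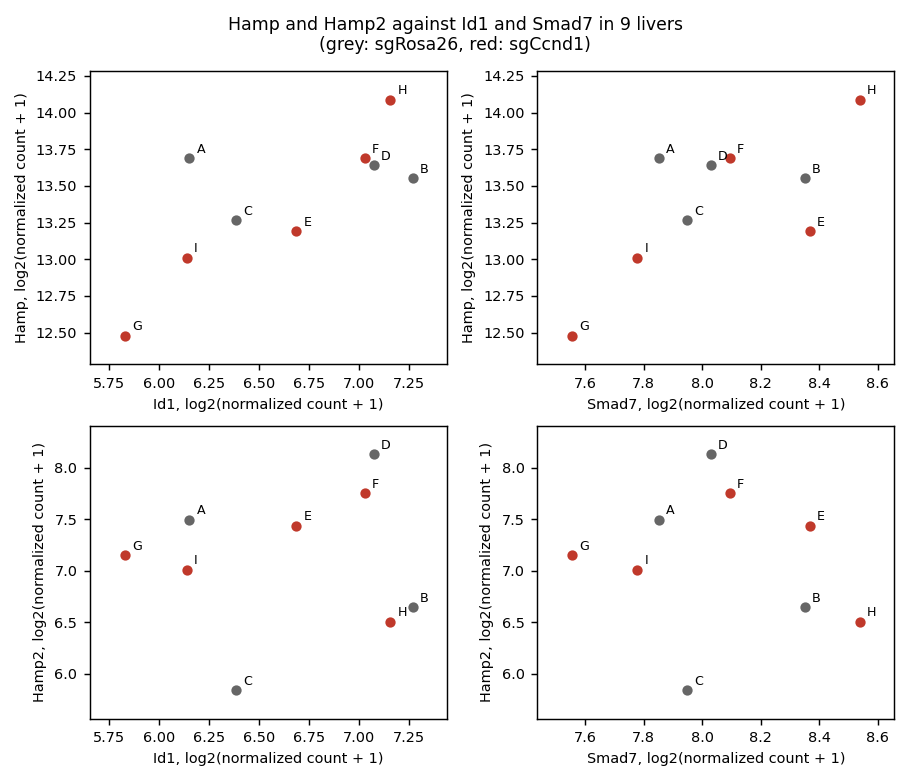
Hamp (top) and Hamp2 (bottom) against Id1 (left) and Smad7 (right), all as log2(normalized count + 1), with 1 point per liver lettered A to I, grey for sgRosa26 and red for sgCcnd1. Hamp has r = 0.75 with Id1 and 0.70 with Smad7, with library G at the lower left in both panels, and Hamp2 has r = 0.09 and -0.15.

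Over all genes tested, the 5 whose log2 values followed those of Hamp most closely in the 9 livers were Rap2b (Pearson's r 0.92), Exosc10 (0.92), Rnf26 (0.91), Trim8 (0.91) and Gm4673 (0.90). For Tfrc they were Ppm1g (0.96), Ciapin1 (0.91), Piezo2 (0.90), Nol6 (0.88) and Angptl8 (0.88). Each is the top of 12993 such values over points that share a library and its depth, and is given as a description. Between the 10 iron genes themselves, r for Hamp2 and Tfrc was 0.82, a pair picked out after its value was seen.

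The wider iron pathway was covered by 79 further genes in 7 lists by role, of which 74 were tested. Erfe, Steap1, Cybrd1, Ftmt and Glrx5 were below the minimum mean. None of the 74 passed the test (limma, against 0.0077% of all genes). At an unadjusted p below 0.05, 9 had positive and 3 negative fold changes, against 5.22% and 5.74% of all genes. In 6 (8.11%) every sgCcnd1 liver was above every control and in 1 (1.35%) below, against 1.92% and 1.97% of all genes. The median log2 fold change of the 74 was 0.06, and 48 were positive and 26 negative. DESeq2 on recovered reads called 2 of them higher (Smad9 and Ireb2) and 1 lower (Smad6). Over the 11983 genes with an adjusted p it called 0.342% higher and 0.634% lower. Without library H, Smad6 alone of the list was called by DESeq2.

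**Figure D4:**
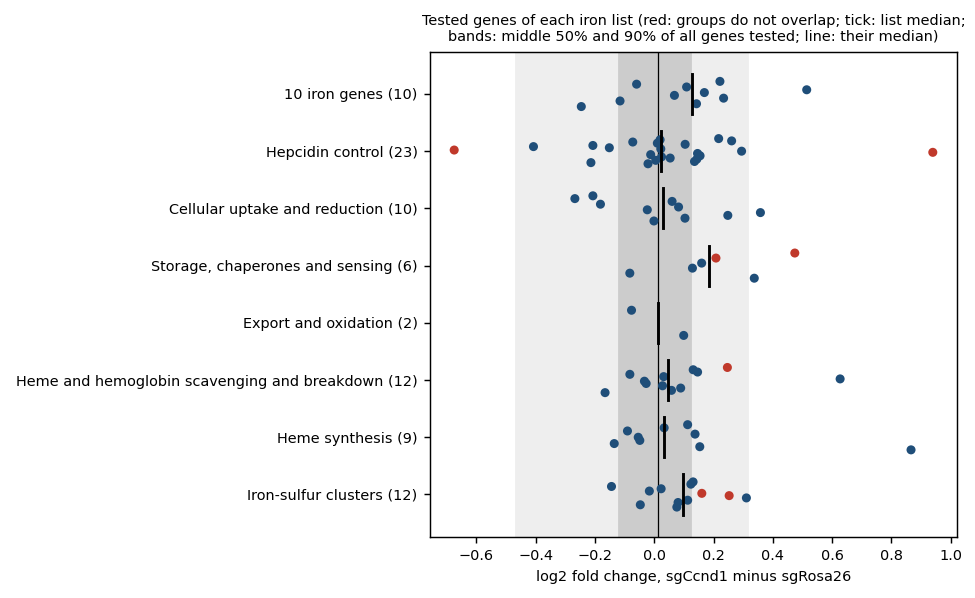
Log2 fold change, sgCcnd1 minus sgRosa26 (horizontal axis), of each tested gene of the 10 iron genes and of the 7 wider lists, with the number tested in parentheses. Red points are genes whose groups did not overlap, thick ticks are list medians, the thin line is the median of all genes tested (0.01) and the dark and light bands hold the middle 50% and 90% of them (-0.12 to 0.12 and -0.47 to 0.32); most list genes lie within the light band.

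Among the 23 tested genes of hepcidin control, Smad6 and Smad9 had groups that did not overlap. Smad6, an inhibitory SMAD that is itself a BMP target, was at 175, 186, 163 and 168 normalized counts in A to D and 136, 104, 98.9, 122 and 85.2 in E to I, every sgCcnd1 liver below every control. In log2 units the fold change was -0.68 (SE 0.14, 95% interval -0.97 to -0.38, limma adjusted p = 0.225). DESeq2 called it at an adjusted p of 0.00721, and of 0.0199 without library H, while edgeR gave 0.193.

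Smad9, the SMAD8 gene, was at 312, 146, 289 and 152 in A to D and 387, 330, 317, 633 and 439 in E to I, every sgCcnd1 liver above every control, though library G (317) was close to library A (312). The log2 fold change was 0.94 (SE 0.26, 95% interval 0.384 to 1.497, limma adjusted p = 0.259). DESeq2 gave an adjusted p of 0.0499, and 0.241 without library H, the highest. The next gene of this list by p was Atoh8, a BMP-responsive transcription factor gene, with a log2 fold change of -0.41 (95% interval -0.74 to -0.07, limma adjusted p = 0.368) and overlapping groups. Positive and negative fold changes were 15 and 8 in the list, with a median of 0.02.

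The 6 tested genes of iron storage and sensing included both iron regulatory proteins, which bind the hairpins printed above. Ireb2, which encodes iron regulatory protein 2, was at 1509.9, 1199, 1401 and 1157 normalized counts in A to D and 1548, 1758, 1855, 1899 and 2075 in E to I. Every sgCcnd1 liver was above every control, with a log2 fold change of 0.47 (SE 0.11, 95% interval 0.24 to 0.70, limma adjusted p = 0.227). DESeq2 gave an adjusted p of 0.0156, and 0.0899 without library H.

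Aco1, which encodes iron regulatory protein 1, a cytosolic aconitase when it holds an iron-sulfur cluster, was at 3508, 3521, 3934 and 3692 in A to D and 3993, 4003, 4439.8, 4472 and 4259 in E to I. These groups did not overlap either, but library C (3934) was close to library E (3993), and the log2 fold change was 0.21 (95% interval 0.04 to 0.37, limma adjusted p = 0.358; 0.13 under quantile normalization). Ncoa4, the receptor that delivers ferritin to the lysosome, had a log2 fold change of 0.34 (95% interval 0.04 to 0.64, limma adjusted p = 0.398) with overlapping groups. Of the 6 genes, 5 had positive fold changes and the median was 0.18. The mRNAs among the 10 that hold the hairpins, read side by side with these, had log2 fold changes of 0.17 (Fth1), 0.51 (Ftl1), 0.22 (Slc40a1) and -0.12 (Tfrc). In the wider lists, a hairpin was also found in the 5′ UTR of Alas2, the erythroid heme synthesis enzyme gene (0.15), and in the 3′ UTR of Bola3, a cluster assembly gene (-0.14). Hairpins on 1 chromosome, which holds none of the 10 genes, were left out of this listing but kept in the share over all genes. Wider-list genes on that chromosome could not appear here, so the listing may be incomplete. Alas2 was -0.0502 without library A and 0.0906 under quantile normalization, and Bola3 was -0.237 without library A and -0.0928 without library D. None of these 6 passed the threshold.

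Of the 10 tested genes of cellular uptake and reduction, 0 had groups that did not overlap (3.89% of all genes did), and the median was 0.03. Slc39a8, a zinc and iron importer gene, showed 0.25 on the log2 scale (limma adjusted p = 0.408), Slc25a37, the gene for the mitochondrial importer mitoferrin 1, -0.18 (limma adjusted p = 0.448) and Steap2, a metalloreductase gene, 0.36 (limma adjusted p = 0.650). Steap2 was 0.18 without library B and 0.58 without library A. The 2 ferroxidase genes that act with ferroportin, Cp and Heph, had 0.10 (limma adjusted p = 0.829) and -0.08 (limma adjusted p = 0.921). Without library B, Cp was at -0.0096, without library A at 0.24 and under quantile normalization at 0.0378. Heph was at 0.0021 without library C and at 0.0712 under quantile normalization.

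Among 12 genes of heme and hemoglobin scavenging and breakdown, the groups of Abcg2, an exporter gene whose protein also carries porphyrins, did not overlap. It was at 792, 867, 910.4 and 852 in A to D and 1009, 995, 960.4, 1062 and 1046 in E to I, with a log2 fold change of 0.25 (95% interval 0.09 to 0.41, limma adjusted p = 0.291). Cd163, the macrophage receptor for hemoglobin bound to haptoglobin, had 0.63 (95% interval -0.10 to 1.36, limma adjusted p = 0.514). Hmox1, heme oxygenase 1, had -0.17 (limma adjusted p = 0.654). The median of the 12 was 0.05.

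In heme synthesis (9 genes, median 0.03), Alas1, the rate-limiting enzyme of the pathway in liver, was at 2213, 1394, 866 and 1650 normalized counts in A to D and 1726, 3172, 1764, 4982 and 2681 in E to I. Libraries F, H and I were above every control and E and G were not. On the log2 scale the difference was 0.87 (SE 0.31, 95% interval 0.19 to 1.55, limma adjusted p = 0.349). Without library H, the highest, it was 0.64 (limma adjusted p = 0.595). Fech, which inserts iron into the porphyrin ring, had 0.11 (limma adjusted p = 0.625) and Alad, the next enzyme after Alas1, -0.13 (limma adjusted p = 0.672). Fech was 0.0555 without library B and 0.0432 under quantile normalization, and Alad was -0.0693 without library D, -0.22 without library C and -0.208 under quantile normalization.

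In iron-sulfur cluster assembly (12 tested genes, median 0.10) the groups of Hspa9 and Isca1 did not overlap, with log2 fold changes of 0.25 (95% interval 0.08 to 0.43, limma adjusted p = 0.316) and 0.16 (95% interval -0.01 to 0.33, limma adjusted p = 0.481). Hspa9, which encodes a mitochondrial chaperone that also serves other proteins, was at 0.15 under quantile normalization. Hscb, its co-chaperone for cluster transfer, had 0.31 (limma adjusted p = 0.534).

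Markers of other cells in the lobe were summed per library. Kupffer cell markers (8 genes, among them Cd163) summed to 1844 to 2786 normalized counts in sgRosa26 and 1932 to 2430 in sgCcnd1. Sinusoidal endothelial markers (8 genes), from the cells that make BMP6, summed to 2990 to 4196 and 3107 to 4547. Stellate cell markers (7 genes) summed to 3428 to 5671 and 3120 to 4690, and red cell genes (6 found of 7) to 1163 to 2443 and 1894 to 2188. Acute phase genes (10) summed to 98825 to 179952 and 118202 to 198189, with the highest value in library G. In each list the ranges of the groups overlapped, and no marker was at 0 in all libraries. Of the markers, 0 passed the limma test, against 0.0077% of all genes. Groups that did not overlap were found for 0 markers, against 3.89% of all genes. The stellate list had 6 of 7 negative log2 fold changes and a median of -0.27, against 0.01 for all genes. In it, 2 genes were lower at an unadjusted p below 0.05 (limma), against 5.74% of all genes. These were the collagen genes Col1a1 (-0.76, 95% interval -1.43 to -0.0851, limma adjusted p = 0.399) and Col3a1 (-0.58, 95% interval -1.05 to -0.12, limma adjusted p = 0.354), named after their values were seen. Without library B they were -0.51 and -0.40, and without library D -1.09 and -0.78. The part of these cells in the fold changes above was not tested.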

How the data were processed

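Poly(A) RNA-seq of 9 mouse livers was analysed from a deposited table of a never-negative expression signal, normalized counts per gene. The submitters' processing notes name Trim Galore 0.6.7, FastQC 0.74, MultiQC, HISAT2 2.2.1, featureCounts 2.0.3, DESeq2 2.11.40.8 and the build GRCm38 (mm10). Annotation, strand use and filters are not given in the sources used here. Columns carry an animal number and a guide target, so libraries were mapped to groups only. Within groups, all libraries differed beyond counting noise (chi-square per degree of freedom 14.1 to 45.6). Intervals are limma 95% intervals of the mean log2 difference between the groups, with errors drawn from the spread between these livers.

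Genes with a mean of at least 10 were tested as log2(normalized count + 1) by limma 3.58.1 (trend, two-sided, Benjamini-Hochberg over 12993 genes) in R 4.3.3. The scale understates changes of low genes. The values were whole multiples of 1 read (within 0.01, 100% of values in each library), so edgeR 4.0.16 and DESeq2 1.42.0 were run on recovered reads. In library H 1 read is worth 0.9996, too near 1 to be told from rounding, so those models were also run without it. On simulated data limma and edgeR each missed part of the genes changed 2-fold, short of the recovery first required, and more of those with smaller changes. Alternatives were other pseudocounts (0.1, 10), filters (none, mean of 100), quantile and 75th percentile scaling, robust eBayes, and each library left out. Named list genes were those past the threshold or the 3 with the smallest p, and those with groups that did not overlap. The members and lists were chosen with earlier results of these data known.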

Additional observations from a re-analysis of the deposited data

Results flagged for a closer look

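A library was marked where its value stood far from the rest of its group, by the gap to its nearest neighbour relative to the range of the group. This was so in 7 of 96 groups of values examined, where chance would mark 4.8. Fgl1 and Ddx3y were added to the screen by hand, outside the rule for named genes, and both were marked. The count therefore cannot be weighed against chance. Bmp6 was at 57.0 normalized counts in sgCcnd1 library H and at 75.2 to 81.3 in the other sgCcnd1 livers. Ddx3y, a Y-linked gene, was at 2.00 in the same library and at 948 to 1154 in the others of its group. Without library H the log2 fold change of Bmp6 was 0.03.

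Fgl1, which encodes a liver-secreted protein that can block BMP action on hepcidin, was at 12030 normalized counts in sgCcnd1 library G and at 1721 to 3306 in the other sgCcnd1 livers. Library G was also the liver with the lowest Hamp, Id1 and Smad7 and the highest Tfr2. In the controls Fgl1 was at 7424, 1793, 2662 and 3250.5, and Hamp in library A, the highest of these, was at 13208. Its part in the Hamp values was not tested.

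Cd163 was at 29.7 in sgCcnd1 library E and at 79.97 to 94.96 in the others of that group. Slc39a8 was at 613 in sgCcnd1 library I and at 479.8 to 515 in the others. Gm4673, a gene whose pattern was like that of Hamp, was at 344 in sgRosa26 library B and at 279 to 286 in the other controls. Depth was 12.2 M reads (M, mega) in sgRosa26 library A and 16.2 to 16.6 M reads in the other controls.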

How the results depend on the processing

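Each of the 10 iron genes stayed short of the threshold in every alternative fitted (0 of 209 fits), and 12 of these fits turned the sign. Hamp2 was -0.0366 with edgeR TMM, -0.0321 with edgeR RLE and -0.0460 with DESeq2. Trf was -0.14 under quantile normalization. Bmp6 was 0.0062 under quantile normalization and, without library H, 0.0029 with edgeR and 0.0080 with DESeq2. With each library left out in turn, the log2 fold change was -0.25 to 0.51 for Hamp2, -0.222 to 0.0231 for Tfrc and -0.191 to 0.0447 for Bmp6. The cause was not tested.

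Over all genes, DESeq2 called 41 higher and 76 lower (16 and 25 without library H), quantile normalization called 2 lower, and edgeR without library H called 0. With each library left out, limma called 0 to 2 lower. Of the wider iron list DESeq2 called 2 higher and 1 lower, against 0.342% and 0.634% of all genes with an adjusted p, and 1 lower without library H. Ccnd1 ranged from -1.11 to -0.96 with a library left out, and its limma adjusted p was above 0.05, at most 0.0852, without B, D, F, H or I. Genes lower made up 52.4% of those at an unadjusted p below 0.05, 62.6% after 75th percentile scaling, 37.5% with a minimum mean of 100 and 45.1% without library A.

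Other named genes that turned sign were Smad7 (-0.0013 with 75th percentile scaling, and without library H -0.0807 with edgeR and -0.0783 with DESeq2) and Heph (0.0712 under quantile normalization). In the main limma fit Smad7 was 0.0220, Id1 -0.152, Saa1 -0.0746 and Fgl1 0.104. Gt(ROSA)26Sor, at the locus of the control guide, was 0.0574 (limma adjusted p = 0.929). With a library left out the ranges were -0.10 to 0.15 for Smad7, -0.341 to 0.0338 for Id1, -0.35 to 0.19 for Saa1, -0.34 to 0.50 for Fgl1, -0.0096 to 0.235 for Cp, -0.0502 to 0.254 for Alas2, -0.14 to 0.0021 for Heph and -0.11 to 0.16 for Gt(ROSA)26Sor. The correlation of Hamp ranged from -0.0529 to 0.298 with Hamp2, 0.59 to 0.91 with Id1, 0.49 to 0.84 with Smad7, -0.58 to -0.27 with Bmp6 and -0.52 to -0.08 with Saa1. No paired analysis was possible because the headers hold animal numbers in place of replicate numbers. With 4 and 5 livers, a p that misses the threshold does not show that the groups are alike, and Bmp6 and Heph rest on few reads.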
